A study of Homo sapiens with 2 samples.

Results

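The MHC class II presentation genes were followed in 2 subclones of HMC1, an established human cell line derived from mast cell leukaemia. One subclone carried the adhesion receptor CD2 on its surface and the other did not; both were sorted out of the same line by flow cytometry after staining for CD2, and no treatment, dose or time is named for either. Total RNA of each was hybridised, after biotin labelling, to 1 Affymetrix U133 Plus 2.0 array. The labels used here do not say whether a subclone grew from a single cell. The genes described are HLA-DRA, HLA-DRB1, HLA-DPA1, HLA-DPB1, HLA-DQA1, HLA-DQB1, HLA-DMA, HLA-DMB, CD74 and CIITA, 10 of the 19775 genes that had a probe set of their own. Every probe set annotated to a member was taken, also where the annotation shared it with related genes, which gave 32 of 54675 probe sets: 26 named by 1 gene and 6 by several.

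MHC class II molecules carry peptides from endosomes to the cell surface, where CD4+ T cells read them. Each is a pair of an alpha and a beta chain (HLA-DR, HLA-DQ or HLA-DP) that folds with the invariant chain CD74; proteases trim the invariant chain in the endosome, and the HLA-DM dimer exchanges its last fragment for a peptide. The co-activator CIITA is known as the master switch of these genes and binds no DNA itself, but joins a complex of RFX, CREB and NF-Y proteins on a conserved pair of promoter elements, the X and Y boxes. B cells, dendritic cells and macrophages make class II molecules constantly, and mast cells are known to make them mostly after stimulation, for example with interferon-gamma.

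The values are linear RMA intensities given as whole numbers. The 27 Bacillus probe sets on the array, which have no target in human RNA, read from 1 to 4, and 4 is used as the upper end of background; no more than 4 was read by 56.5% of the probe sets of the CD2-positive array and 56.9% of those of the CD2-negative array. An intensity of 64 on at least 1 array was the floor for comparing genes. A gene near the floor can thus enter through its higher value alone. CD2 itself read 219 on the CD2-positive array against 13 on the other, in the direction of the labels. The 18 spiked hybridisation controls were all dimmer on the CD2-positive array, by a median of -0.18 (log2). With 1 array per group no difference has a replicate check, so no p-value was computed and nothing here is a test of the conditions. A spread could be had only from probe sets of the same gene: in 937 genes with several at or above the floor, the standard deviation of the log2 difference of 1 probe set was 0.13, which covers probe behaviour and not biological variation.

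The class II genes were divided by level. HLA-DPA1, HLA-DPB1 and most HLA-DRB probe sets lay above the floor on both arrays and were all somewhat higher in the CD2-positive subclone. HLA-DMA and part of the HLA-DQB1 probe sets lay between background and floor. HLA-DQA1, HLA-DMB and CD74 were at background on both arrays in all their probe sets, and HLA-DRA and CIITA exceeded it by at most 2 units. Of the 32 probe sets, 7 were at or above the floor, 9 were between background and floor and 16 were at background on both arrays. Over the whole array, 5583 of 54675 probe sets were at or above the floor. At most 4 was read by 56.5% of all probe sets on the CD2-positive and 56.9% on the CD2-negative array, each array taken alone. The share of class II probe sets at background was thus not far from that of all probe sets. Different probe sets differ in affinity, so their levels are set here against background and floor and not against each other.

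**Figure D1:**
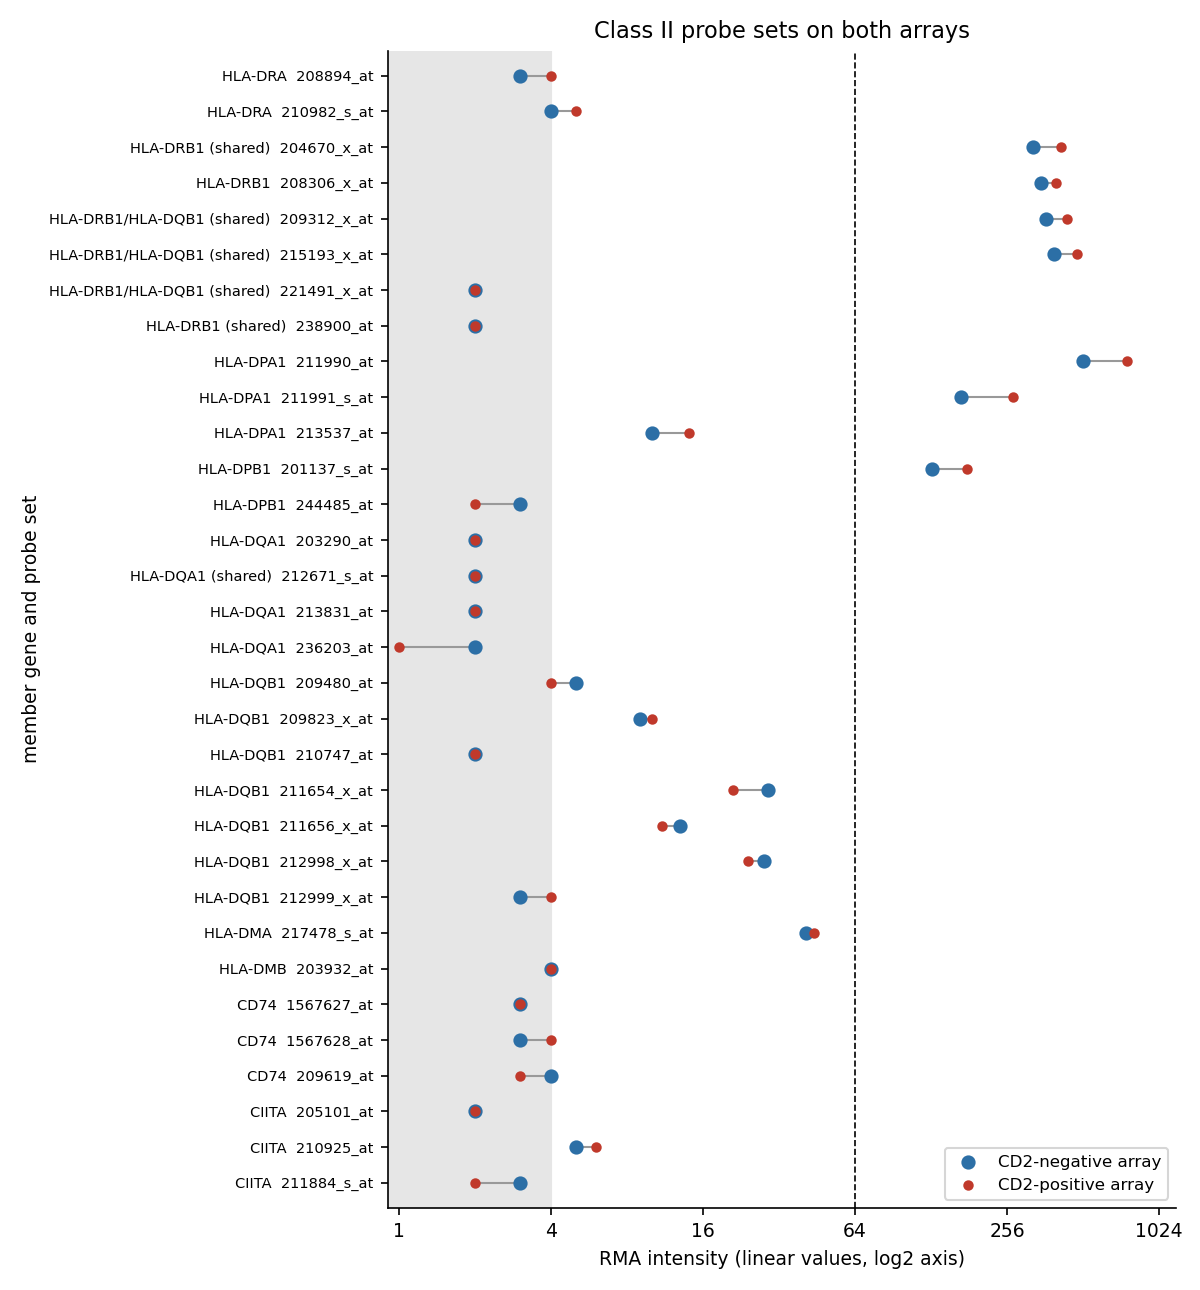
RMA intensity on a log2 axis of all 32 class II probe sets, 1 row each, in the CD2-negative (large blue points) and CD2-positive (small red points) sample. The grey band ends at 4, the highest value of the Bacillus probe sets, and the dashed line marks the floor of 64; the 7 probe sets to its right belong to HLA-DRB1 and its relatives, HLA-DPA1 and HLA-DPB1, and each is higher in the CD2-positive sample.

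The promoters are shown because genes with the same kind of regulatory element lay on both sides of the background limit. RefSeq promoter windows on GRCh38.p14 matched 8 of the 10 members, with no entry used for HLA-DRA and CIITA. Each line gives the 160 bases before the transcript start, 5′ to 3′ on the gene's strand, of the reference genome and not of the alleles of HMC1. Capitals mark CNAGNNA, a core of the X box, followed on the same strand after 25 to 45 bases (first base to first base) by ATTGG, the core of the Y box. Where the gene's strand lacks this pair, they mark each CNAGNNA on that strand and each ATTGG or its reverse complement CCAAT.
HLA-DRB1, chr6:32589849-32590008, minus strand: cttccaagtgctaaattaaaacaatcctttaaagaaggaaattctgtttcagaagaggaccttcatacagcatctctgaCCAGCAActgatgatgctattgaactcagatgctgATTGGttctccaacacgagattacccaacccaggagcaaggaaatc
HLA-DPA1, chr6:33073650-33073809, minus strand: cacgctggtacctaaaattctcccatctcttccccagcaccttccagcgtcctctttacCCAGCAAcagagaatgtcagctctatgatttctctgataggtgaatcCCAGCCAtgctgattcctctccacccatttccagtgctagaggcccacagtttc
HLA-DPB1, chr6:33075830-33075989, plus strand: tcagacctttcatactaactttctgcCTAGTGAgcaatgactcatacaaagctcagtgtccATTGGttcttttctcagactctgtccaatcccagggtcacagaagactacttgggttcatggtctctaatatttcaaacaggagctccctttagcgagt
HLA-DQA1, chr6:32637246-32637405, plus strand: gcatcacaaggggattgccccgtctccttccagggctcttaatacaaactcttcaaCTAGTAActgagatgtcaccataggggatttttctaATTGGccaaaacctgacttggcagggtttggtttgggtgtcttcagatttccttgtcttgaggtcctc
HLA-DQB1, chr6:32666658-32666817, minus strand: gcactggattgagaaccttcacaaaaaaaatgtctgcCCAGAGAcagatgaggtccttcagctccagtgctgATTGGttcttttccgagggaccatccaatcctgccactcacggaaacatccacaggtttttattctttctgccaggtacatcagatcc
CD74, chr5:150412911-150413070, minus strand: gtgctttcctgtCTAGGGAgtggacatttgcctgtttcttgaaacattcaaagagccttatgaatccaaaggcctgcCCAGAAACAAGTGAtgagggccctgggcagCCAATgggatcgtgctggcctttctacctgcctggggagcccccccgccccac

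In HLA-DRB1, HLA-DPB1 and HLA-DQB1 the cores began 35 bases apart, and in HLA-DQA1 and HLA-DMA 36 bases. The pair stood on the gene's strand in 5 of the 8 genes, and the window of CD74 held a pair on the opposite strand. The CNAGNNA of that CD74 pair reads tgcctgg on the printed strand, after the CCAAT, and is in lower case. The capital CNAGNNA stretches of CD74 are not part of it. Among 35116 promoter windows of 300 bases (250 before and 50 after the start), 3.11% held the pair on either strand. Alone, CNAGNNA occurred in 86.2% and ATTGG in 34.6% of windows on either strand. The motif and the spacing were set after the members' promoters had been read. HLA-DPA1 has 2 annotated starts, and no ATTGG on either strand was found in the window of either. A match of letters is a description and not a site.

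HLA-DPA1 and HLA-DPB1, the alpha and beta chain genes of HLA-DP, lie next to each other in opposite orientation, with 2341 bases between the start of HLA-DPB1 and the nearer start of HLA-DPA1, the one printed above. One HLA-DPA1 probe set read 765 in the CD2-positive against 512 in the CD2-negative sample, a 1.49-fold difference (log2 difference 0.58). Its other probe set above the floor read 271 against 169, a 1.60-fold difference (0.68), and the last, below the floor, read 14 against 10. All 3 were thus higher in the CD2-positive sample, and the differences of the pair above the floor lay within the spread of 0.13 of each other.

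HLA-DPB1 read 178 in the CD2-positive against 129 in the CD2-negative sample with 1 probe set, which is 1.38-fold (0.46). Its other probe set was at background with 2 against 3. Both chains of HLA-DP were therefore measured above the floor in both subclones, with the higher value on the CD2-positive array.

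HLA-DRB1 encodes the beta chain of HLA-DR, and its relatives HLA-DRB3, HLA-DRB4 and HLA-DRB5 are so close in sequence that most of its probe sets are annotated to several of them, and signal of the others in the set annotated to it alone cannot be told apart. The probe set annotated to HLA-DRB1 alone read 399 in the CD2-positive against 348 in the CD2-negative sample, a log2 difference of 0.20 (0.38 with the hybridisation controls set to 0). A probe set shared with HLA-DRB4 read 421 against 326 (0.37). One shared with HLA-DRB4, HLA-DRB5 and HLA-DQB1 read 443 against 367 (0.27). Another, shared with HLA-DRB3, HLA-DRB4 and HLA-DQB1, read 486 against 394 (0.30). The 4 differences had a mean of 0.29 ± 0.07 (SD over 4 probe sets that share their target and are not replicates). Both remaining probe sets annotated to HLA-DRB1, also shared, read 2 on each array. All 4 bright probe sets carry the identifier ending _x, which marks probes that can match several sequences.

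HLA-DRA, the gene of the one alpha chain with which all HLA-DR beta chains pair, read 4 against 3 and 5 against 4 in its 2 probe sets, CD2-positive first. The bright HLA-DRB probe sets were thus far above the floor in both subclones while HLA-DRA read at most 5. Rounding alone allows log2 differences from 0.00 to 0.85 for the first and from 0.00 to 0.65 for the second HLA-DRA probe set, so no difference between the subclones can be read from them.

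**Figure D2:**
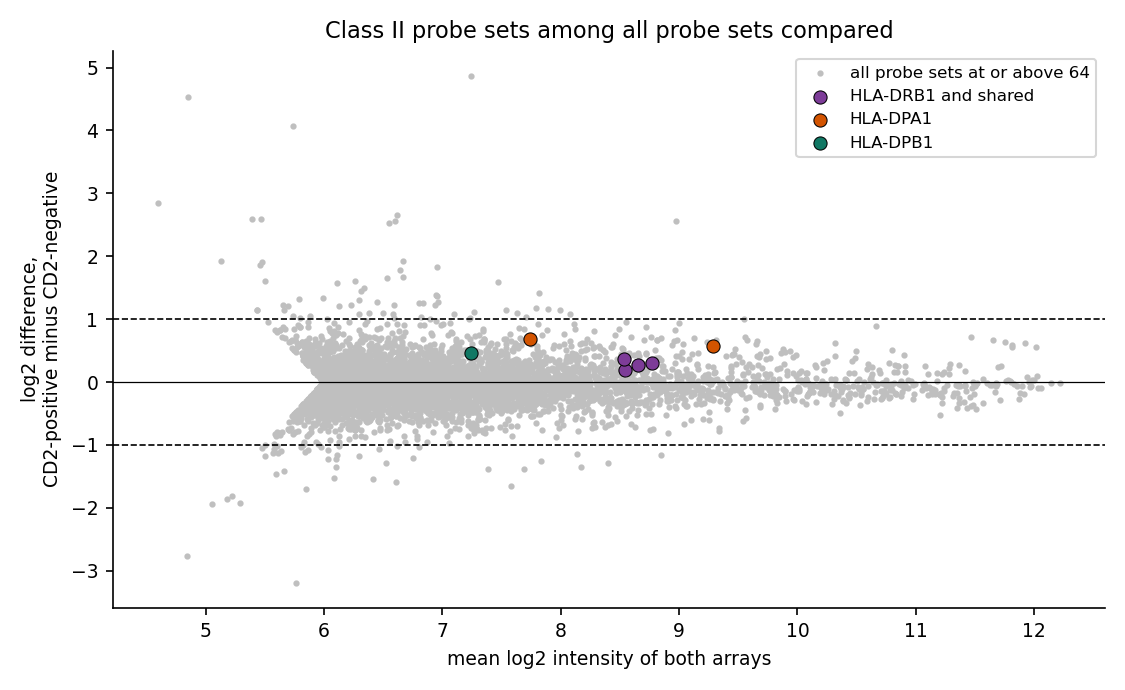
Log2 difference, CD2-positive minus CD2-negative, against mean log2 intensity for all probe sets at or above 64 on at least 1 array (grey), with the 7 class II probe sets in colour and 2-fold marked by dashed lines. All 7 lie above 0, from 0.20 to 0.68, and none reaches 2-fold.

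The 7 class II probe sets at or above the floor had log2 differences from 0.20 to 0.68 with a median of 0.37. All 7 were positive, where 43.3% of the 5583 probe sets at or above the floor were; several of them measure the same transcripts, so they are not 7 separate observations. One of the 7 passed a 1.5-fold rule, beside 8.67% of those probe sets, and none passed 2-fold, beside 1.99%. By gene, represented by the brightest probe set of its own, 3 of the 10 members reached the floor, beside 3564 of all 19775 genes. The median difference of these 3 was 0.46, against -0.05 over the 3564 genes compared. All 3 were positive, beside 41.9% of those genes. None of the 3 passed 2-fold, which 1.96% of the genes compared did, and none passed 1.5-fold, which 8.0% did in either direction. HLA-DPA1 lay just under the smaller rule at 1.49-fold and would pass it with the differences centred on the median of the genes compared (0.62), on the hybridisation controls (0.76) or after a lowess correction (0.61). HLA-DPB1 would pass it when centred on the hybridisation controls (0.65). Of the 3564 genes compared, 4.35% had a difference at least as high as that of HLA-DPA1, 6.79% as that of HLA-DPB1 and 20.1% as that of HLA-DRB1. RNA of a whole culture does not show whether more cells expressed a gene or each cell held more of its RNA.

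HLA-DQA1 and HLA-DQB1 encode the chains of HLA-DQ. All 4 HLA-DQA1 probe sets, 1 of them shared with HLA-DQA2, read 1 or 2 on both arrays. HLA-DQB1 had 7 probe sets of its own, which read from 2 to 24 in the CD2-positive and from 2 to 29 in the CD2-negative sample, none at the floor. The brightest read 24 against 28, another 21 against 29, and the next 11 against 13. These 3 were lower in the CD2-positive sample by more than rounding allows. They also carry the identifier ending _x, so signal of related genes in them cannot be told apart. The following one read 10 against 9, with rounding bounds that include 0. The 2 bright probe sets that HLA-DQB1 shares with HLA-DRB1 had the opposite sign to the 3. The remaining shared one read 2 on both arrays. Its own brightest gave -0.22, and the brightest shared one gave 0.30. That shared set read 486 against 394, above the floor like the set annotated to HLA-DRB1 alone (399 against 348). No set of HLA-DQB1 alone read more than 29. The value of 0.30 is therefore not taken as a direction of HLA-DQB1.

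HLA-DMA and HLA-DMB encode the peptide exchanger HLA-DM. HLA-DMA read 44 in the CD2-positive against 41 in the CD2-negative sample, a log2 difference of 0.10. The spread of 0.13 was taken from probe sets at or above the floor, and none was estimated for the level of HLA-DMA. HLA-DMB read 4 on both arrays. One chain of HLA-DM was thus above background and the other was not, in both subclones.

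CD74, the invariant chain, read 3 and 3, 4 and 3, and 3 and 4 in its 3 probe sets, CD2-positive first, all at background. CIITA read 2 and 2, 6 and 5, and 2 and 3. The chaperone and the co-activator of the class II genes thus stood at or within 2 units of background in both subclones, and no difference between them was measurable for either gene. Of the 25 class II probe sets below the floor, 20 had a difference whose rounding bounds include 0. The 5 others were the dimmest HLA-DPA1 probe set and HLA-DMA, both higher in the CD2-positive sample, and the 3 HLA-DQB1 probe sets named above, lower there.

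Other genes of the class II family lay below the floor. HLA-DRB4 read 8 against 7, HLA-DQB2 5 against 4, and HLA-DOA and HLA-DOB, which encode the dimer that holds HLA-DM back, 12 and 3 on both arrays. HLA-DRB3, HLA-DRB5 and HLA-DQA2 had no probe set of their own. From HLA-DRA to HLA-DPB1, chromosome 6 holds 32 genes in RefSeq order, of which 19 were measured, 11 of them not members. Of these 11 only BRD2, a gene of a chromatin-binding protein, reached the floor, at 164 against 201 (-0.29), opposite in sign to HLA-DPA1 nearby, though near -0.11 when centred on the hybridisation controls. TAP1, a peptide transporter gene of the class I pathway named here after its values were seen, read 28 against 50, below the floor. Among the 10 measured genes on either side of CD74 on chromosome 5, 5 reached the floor, with a median of -0.05, and around CIITA on chromosome 16, 3 did, with a median of 0.02; none of these passed 1.5-fold.

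**Figure D3:**
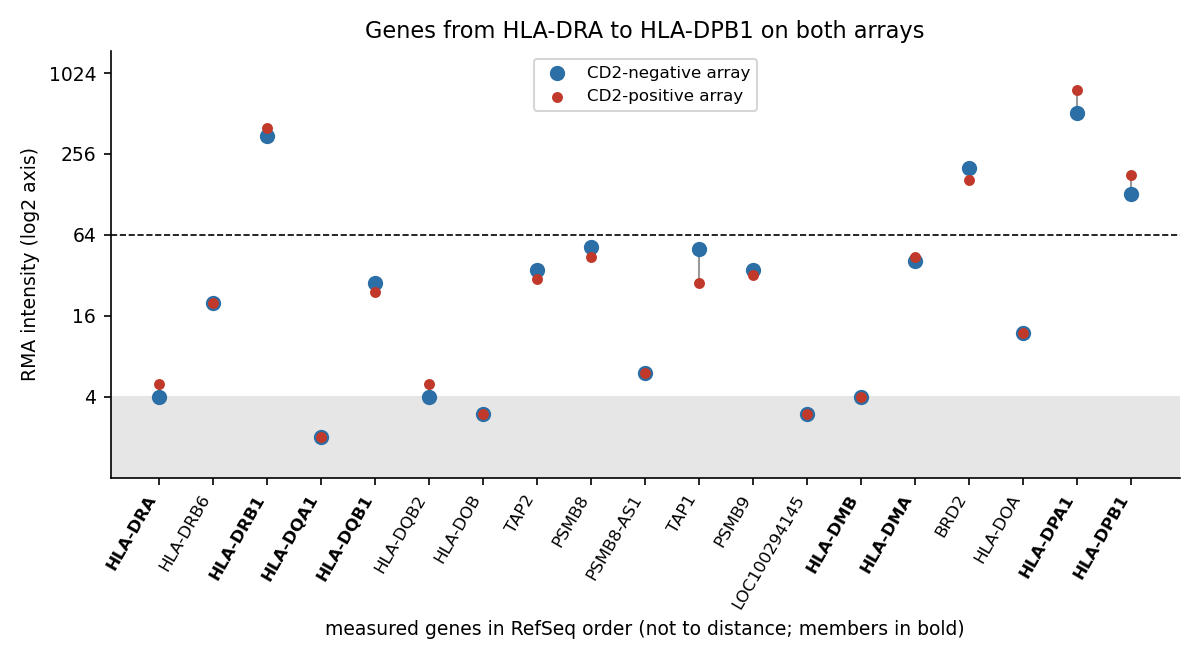
RMA intensity on a log2 axis of the 19 measured genes from HLA-DRA to HLA-DPB1 in RefSeq order, each by its brightest probe set, in the CD2-negative (large blue) and CD2-positive (small red) sample. HLA-DRB1, BRD2, HLA-DPA1 and HLA-DPB1 lie above the dashed floor of 64, and of these 4 only BRD2 is lower in the CD2-positive sample.

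The lists of pathway genes stand beside the values over all genes, of which 3564 of 19775 reached the floor. Of those 3564, 41.9% were higher in the CD2-positive sample and 8.0% passed 1.5-fold in either direction. The promoter complex was measured mostly below the floor. Of 7 measured subunits, RFXANK (100 against 86) and RFX5 (53 against 69, log2 difference -0.38), both RFX subunits, reached it, and neither passed 1.5-fold. RFX5 reached the floor on the CD2-negative array alone. None of the 7 was at background on both arrays. Co-activators and chromatin enzymes had 4 of 9 measured members at the floor with a median of 0.17, none past 1.5-fold, and the one of these 4 farthest from 0 was the histone deacetylase gene HDAC1 at 270 against 204 (0.40).

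The interferon-gamma route, which switches CIITA on in many cell types, had 4 of 9 measured members at the floor. Of these, 1 was higher and 3 were lower in the CD2-positive sample, with a median of -0.25 and none past 1.5-fold. Over all genes compared, 41.9% were higher there and 8.0% passed 1.5-fold. JAK1, a kinase gene of the route, was the one of the 4 farthest from 0, at 172 against 225 (-0.39). The other kinase gene listed, JAK2, read 15 against 13, below the floor. The receptor chain gene IFNGR1 read 94 against 93 and IFNGR2 68 against 86. The difference of IFNGR1 (0.02), the 1 higher gene, lay within the spread of 0.13 of 1 probe set. IRF1, counted as lower, read 59 against 66 and reached the floor on the CD2-negative array alone. Below the floor SOCS1, named here after its values were seen, read 48 against 30 (1.60-fold). Of the 7 measured genes listed as lineage regulators of CIITA only MITF reached the floor, at 276 against 154, a 1.79-fold difference. MITF encodes the transcription factor that governs many mast cell and melanocyte genes, and it is also counted among the mast cell genes below. Whether MITF acts on CIITA was not tested. Below the floor SPI1 read 19 against 18, PRDM1 17 against 13, TFEB 13 against 12 and PAX5 7 against 5. IRF4 and IRF8, factors of lymphoid and myeloid antigen-presenting cells, were at background with 3 and 4 on both arrays.

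Endosomal proteases and their partners had 6 of 11 measured members at the floor, 5 higher and 1 lower in the CD2-positive sample, with a median of 0.24. Over all genes compared, 41.9% were higher there. CTSD, the cathepsin D gene, was the one past 1.5-fold at 103 against 53 (1.94-fold), beside 8.0% of all genes compared. CTSD reached the floor on the CD2-positive array alone. Below the floor CTSH, named here after its values were seen, read 56 against 29 (1.93-fold). CTSS, known as the protease that trims the invariant chain in B cells and dendritic cells, read 213 against 210. SPPL2A, which cleaves the last membrane stub of the invariant chain, read 130 against 174 (-0.42). CTSS and SPPL2A were picked for their role after their values were seen. CTSS and SPPL2A were therefore measured well above background in cells in which CD74 was not. This does not hold for the whole list: LGMN read 2 on both arrays and CTSZ 5 against 4.

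Genes of the class II compartment had 8 of 10 measured members at the floor, 6 higher and 2 lower, with a median of 0.09 and none past 1.5-fold by the brightest probe set. LAMP2, a lysosomal membrane protein gene, was farthest from 0 among those at the floor, at 124 against 178 (-0.52), and its other probe sets above the floor gave -0.75 and -0.55. Below the floor LAMP3, a membrane protein gene of mature dendritic cells named here after its values were seen, read 7 against 26, a log2 difference of -1.89. MARCHF8, a ubiquitin ligase gene of the family that removes class II molecules from the surface, read 68 against 86, and MARCHF1 was at background. Costimulatory ligands and CD40 had 3 of 12 measured members at the floor, all higher in the CD2-positive sample, with a median of 0.33. As for the class II compartment, these counts stand beside 41.9% of all genes compared that were higher and 8.0% that passed 1.5-fold. CD83, a surface protein of mature dendritic cells that is known to protect class II molecules from that ligase family, was past 1.5-fold at 135 against 71 (1.90-fold). TNFSF9 read 75 against 62 and reached the floor on the CD2-positive array alone. CD80 read 7 against 6, and CD86 2 against 3.

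**Figure D4:**
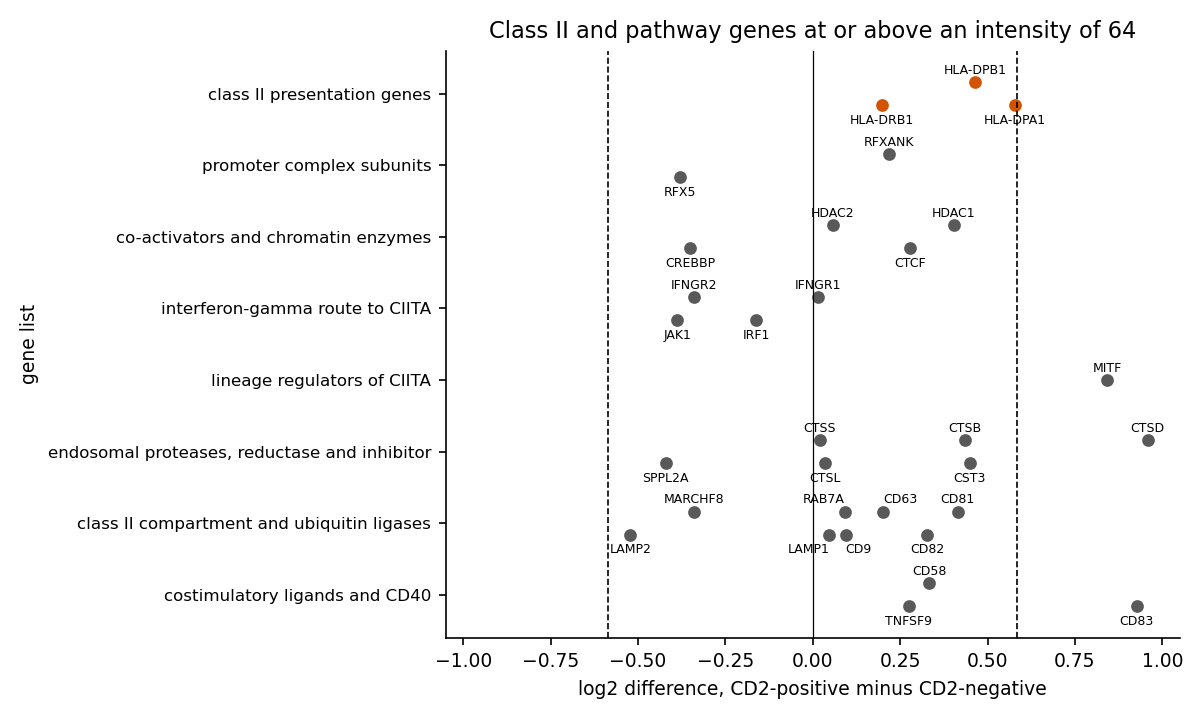
Log2 difference, CD2-positive minus CD2-negative, of the class II members (orange) and of the pathway genes (grey) at or above an intensity of 64, 1 row per list; dashed lines mark 1.5-fold. MITF, CTSD and CD83 lie beyond the upper line, HLA-DPA1 lies just inside it, and no gene lies beyond the lower line.

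Markers of other class II-bearing cells stayed near background. All 11 measured monocyte and dendritic cell genes, CD14, LYZ and CSF1R among them, read at most 4, and their summed intensity was 26 in the CD2-positive sample and 27 in the other. Of 7 B cell genes 4 were at background, MS4A1 and CD79B included, and the sums were 72 and 65, of which CD22 made up 48 and 43. Of 7 T cell genes 5 were at background, with sums of 29 and 29. Mast cell genes had 9 of 11 measured members at the floor. Below it FCER1A read 27 against 8, and CMA1 was at background with 2 on both arrays. By the brightest probe set all 9 were higher in the CD2-positive sample, beside 41.9% of all genes compared, with a median of 0.49. The differences of SRGN (0.02) and KIT (0.05) lay within the spread of 0.13 of 1 probe set. Another bright SRGN probe set went the other way, at 1149 against 1185. Of the 9 genes, 4 passed 1.5-fold and 2, CPA3 and HPGDS, passed 2-fold, beside 8.0% and 1.96% of all genes compared. KIT read 1373 against 1328 and CPA3 1220 against 207. Over all 11 measured mast cell genes the summed intensity was 11762 against 8236, of which TPSAB1 alone made up 4806 and 3142. The 9 genes at the floor thus lay in the same direction as HLA-DPA1 and HLA-DPB1, KIT and SRGN barely so. The part of mast cell genes in that result was not tested.

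Genes with values most like those of a member were sought by distance in the plane of both log2 values, over 2 arrays. For HLA-DPA1 they were ADI1 at 804 against 504 (distance 0.08), TPI1 at 749 against 484 (0.09) and INSIG1 at 781 against 584 (0.19). HLA-DRA and CD74 shared their exact pair of rounded values with 235 and 349 other genes, so no nearest gene can be named for them.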

How the data were processed

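RNA of 1 array per subclone was analysed. The deposited values are probe-set intensity values that the authors normalised with RMA, per the submitters' processing notes, which name Affymetrix Expression Console 1.1; the linear scale and the rounding to whole numbers were read from the values. The variant of background correction and a genome build were not stated in the labels. RMA equalises the distributions of both arrays, so a difference in total signal is lost. Values were converted to log2, and differences are CD2-positive minus CD2-negative. Gene names of probe sets came from the platform annotation, with symbols updated by Entrez identifier from RefSeq (GRCh38.p14): 41097 probe sets carried 1 gene, 1801 several and 11777 none. Sets of several genes were used only for the members.

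A gene was compared where its brightest probe set of its own reached log2 6 on 1 array. The number of arrays limits the precision. Members and lists were chosen with earlier results of these data known. Named are all members, CD2, up to 4 genes past 1.5-fold per pathway list or else the one farthest from 0, neighbours past 1.5-fold and the 3 nearest genes; other examples were chosen with their values in view. The alternatives covered other floors, probe set choices, centrings and a lowess correction with a span of 0.3. Python 3.11.15, pandas 2.3.3 and statsmodels 0.14.6 were used.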

Additional observations from a re-analysis of the deposited data

How the results depend on the processing

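No member passed 2-fold under any of the 9 alternatives, and HLA-DRB1, HLA-DPA1 and HLA-DPB1 had a positive difference wherever they were compared. The number past 1.5-fold went from 0 to 1 when centred on the median of the genes compared, to 1 after the lowess correction and to 2 when centred on the hybridisation controls. That last centring takes the median over all genes compared from -0.05 to 0.14. The median of the members, 0.46 over 3 genes, became 0.65 when centred on the hybridisation controls, 0.33 over 4 genes at a floor of log2 5 and 0.15 over 10 genes with no floor; the last 2 take in genes nearer to background. With plain probe set identifiers only HLA-DPA1 was left, and averaging the probe sets of each gene left HLA-DRB1 and HLA-DPA1. Of all genes compared, 70 passed 2-fold (61.4% of them higher), against 125 at a floor of log2 5, 32 at log2 7, 687 with no floor, 39 with the mean and 37 with plain identifiers, as the number compared changed. Higher calls made up 83.5% when centred on the hybridisation controls, 75.7% after lowess and 75% at log2 7, but 44.5% with no floor (306 higher and 381 lower). No paired analysis was possible because each group holds 1 array. Rounding and the unknown background correction limit every value near 4.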
